A study of Caenorhabditis elegans with 6 samples.

Results

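The 6 vitellogenin genes of Caenorhabditis elegans, vit-1 to vit-6, were followed across a 2-colour array study of nematodes exposed to the organophosphorus pesticide chlorpyrifos (CPF). Members were all probes whose sequence name in the scanner files belongs to one of these genes, second probes included, and they amounted to 11 of 22490 gene probes and 6 of 18865 genes on the array. All nematodes were of the wild-type strain N2, were fed on Escherichia coli OP50 and were kept at 24 °C from synchronised eggs. CPF samples were grown on agar with CPF at 0.5 mg/l, dissolved in acetone, and control samples on agar with acetone alone. Each sample pooled 4 dishes, and each of 6 arrays received 1 CPF and 1 control sample. On 3 arrays the CPF sample carried the red dye Cy5 (CPF in Cy5, replicates 1 to 3), and on 3 arrays it carried the green dye Cy3 (CPF in Cy3, replicates 1 to 3). Per the labels the animals were late larvae (L3 or L4) at 72 h of age. For 24 °C the study's methods name late L3 alone, at fewer hours, and they give 72 h for a lower temperature. RNA was taken from whole nematodes, so that fewer cells of a type and less RNA per cell cannot be told apart.

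Vitellogenins are yolk lipoproteins. They are made by the intestine of the adult hermaphrodite, secreted into the body cavity, and taken up by growing oocytes through the receptor RME-2, so that yolk feeds the embryo. Their transcripts are among the most abundant of the adult hermaphrodite, appear around the last moult, and are scarce in earlier larvae and in males, which is why they are often taken as a sign of stage and sex. In the reference annotation (assembly WBcel235) 5 of the genes lie on chromosome X and vit-6 lies on chromosome IV. No other protein-coding gene lies between vit-3 and vit-4. The genes vit-3, vit-4 and vit-5 encode near-identical proteins, vit-1 and vit-2 encode a second pair of large yolk proteins, and vit-6 encodes the precursor that is cut into the smaller yolk proteins.

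The array carried 3 probes for vit-3, 4 for vit-4 and 1 for each of the other 4 genes, numbered here from the brightest down within a gene. The sequences of the probes were not used here, so that which of the near-identical copies a probe reads is uncertain, and the level of a probe was not set against that of another. Testing required that the median of a probe exceeded local background by 2 SDs of that background in 6 or more of the 12 channels. This left 8 of the 11 probes, at least 1 for every gene. The 3 others were dim: vit-3 probe 3 passed in 3 channels, all of them CPF channels, and vit-4 probes 3 and 4 in 0 of 12. Background-subtracted signals of vit-4 probes 3 and 4 ranged from -1 to 27 over all channels.

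Yolk transcripts gave bright signals on 5 of the 6 arrays, in both the CPF and the control channel. On these 5 arrays all 6 genes were above background in both channels by their brightest probe, and signals ran from 486 to 53149 units above local background. On CPF in Cy5 replicate 3 the same probes gave 580 to 872 units in the CPF channel and 57 to 139 in the control channel, where vit-1 and vit-2 alone were above background. After normalisation each of the 6 genes differed more between this array and the median of the others than between the channels of any 1 array.

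The gene vit-2 encodes one of the large yolk proteins. Its signal in the CPF channel was 23886, 23556 and 841 on the CPF in Cy5 arrays and 53149, 15615 and 25180 on the CPF in Cy3 arrays. In the control channel it was 15052, 5577 and 95 on the former and 37465, 27427 and 37395 on the latter. CPF lay above control on all 3 CPF in Cy5 arrays and on CPF in Cy3 replicate 1, and below it on CPF in Cy3 replicates 2 and 3, with saturated pixels in the CPF spot of CPF in Cy3 replicate 1. For vit-1, its closest relative in the family, the CPF channel gave 4620, 3241 and 580 on the CPF in Cy5 arrays and 23474, 2660 and 6879 on the CPF in Cy3 arrays. The control channel gave 2330, 486 and 139, and 4719, 3764 and 6841. Here CPF was below control on CPF in Cy3 replicate 2 alone, and nearly equalled it on CPF in Cy3 replicate 3.

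The brightest probe of vit-3 gave 29720, 39590 and 872 units for CPF and 17497, 7303 and 112 for control on the CPF in Cy5 arrays. On the CPF in Cy3 arrays it gave 41564, 22165 and 31593 for CPF and 39990, 33721 and 40586 for control. The ranges of the CPF and control channels overlapped on either side of the dye swap. The brightest probe of vit-4 gave 24293, 41609 and 713 for CPF and 15055, 8696 and 83 for control on the CPF in Cy5 arrays, then 46945, 24182 and 35462 for CPF and 39477, 35940 and 41187 for control on the CPF in Cy3 arrays. The probe of vit-5 gave 20448, 39426 and 804 against 11748, 8445 and 77, and then 48808, 23778 and 24635 against 38312, 34855 and 27676. In all 3 of these genes CPF was above control on the CPF in Cy5 arrays and below it on CPF in Cy3 replicates 2 and 3. On CPF in Cy3 replicate 1 the spots of vit-3 and vit-4 had saturated pixels in both channels, so that their order there cannot be read. For vit-5 the CPF spot alone had saturated pixels there, and its signal was above control.

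The precursor gene vit-6, on its own chromosome, gave 24758, 30963 and 592 units for CPF against 13040, 6492 and 57 for control on the CPF in Cy5 arrays. On the CPF in Cy3 arrays it gave 30180, 15931 and 13311 for CPF against 12878, 26686 and 17221 for control. Its order of channels was that of vit-2: CPF was below control on CPF in Cy3 replicates 2 and 3 and above it elsewhere.

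**Figure D1:**
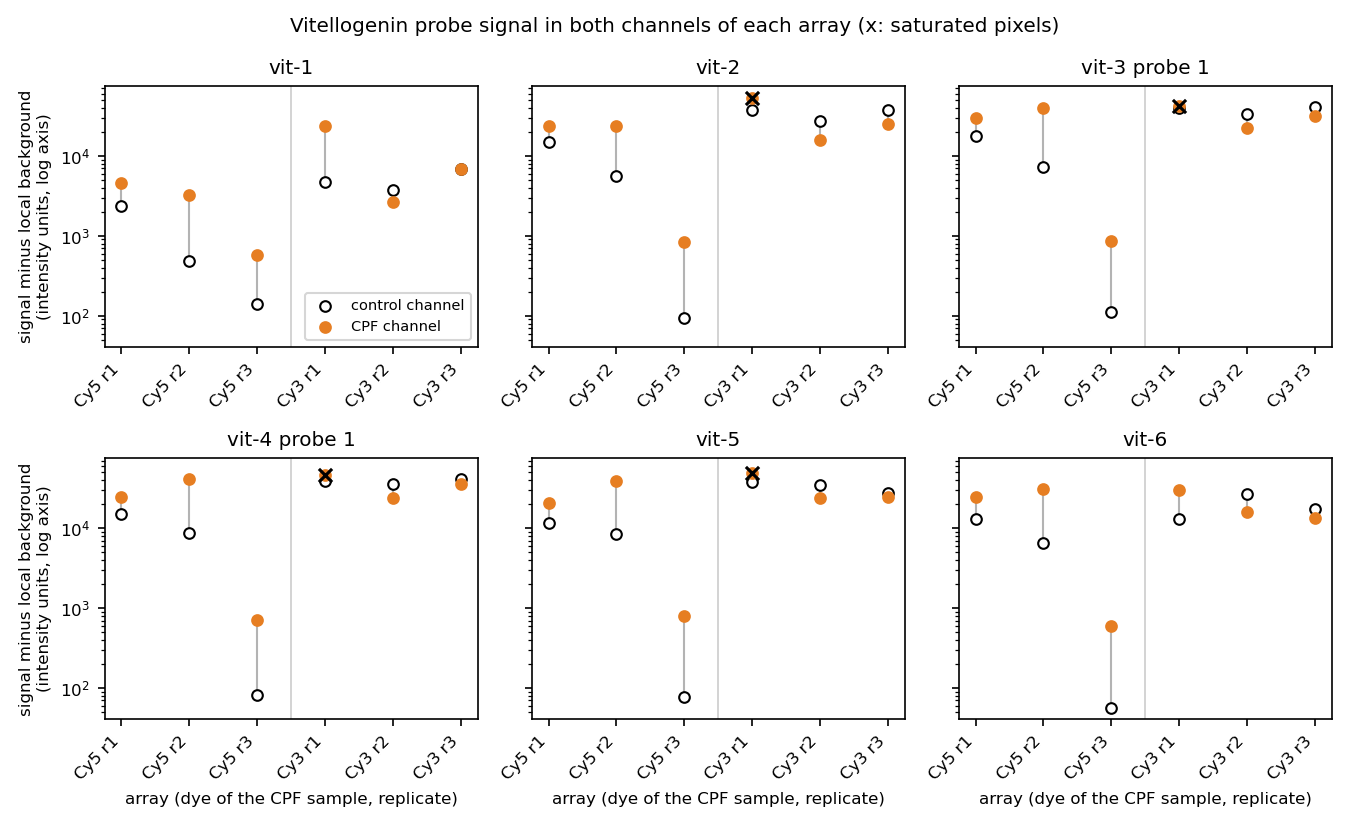
Signal above local background (log axis, intensity units) of the brightest probe of each vitellogenin gene, with the CPF channel as filled and the control channel as open circles on each of the 6 arrays, and crosses where pixels were saturated. On CPF in Cy5 replicate 3 all signals lie between 57 and 872, while on the other 5 arrays they lie between 486 and 53149.

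Some of the bright spots had reached the ceiling of the scanner. Saturated pixels were listed for 5 of the 11 probes, all on CPF in Cy3 replicate 1. On that array 198 gene probes had saturated pixels, against 43 to 100 elsewhere. Its Cy5 detector, which read the control channel, was set to 60 against 55 on the other 5 arrays. Its Cy3 detector, which read the CPF channel, was set to 60 as on every other array. In the CPF channel of that array the share of saturated pixels was 50% for vit-2, 50% for vit-3 probe 1, 26.3% for vit-3 probe 2, 50% for vit-4 probe 1 and 50.7% for vit-5. In its control channel the share was 35.5% for vit-3 probe 1 and 5.3% for vit-4 probe 1, and 0 for the 3 others. The column reached no higher than 50.7%, also for 4 spots whose mean stood at the upper limit of the scanner (50% to 50.6%), while the vitellogenin spots listed at 50% or more had raw means of 41736 to 53315, below that limit. A saturated CPF spot holds only a lower bound of its signal, and the ratios of these 5 probes on this array are given as measured. The probes of vit-1 and vit-6 had no saturated pixel on any array.

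Ratios of CPF over control were taken after loess normalisation, as log2 values on which 1 is a doubling. Direction was read from the labels given to each scanner file. The deposited table of log2 ratios goes against it, since each of its columns matched the array that shares its replicate number but has the dyes the other way round (correlations across probes of 0.986 to 0.987 and of -0.991 to -0.971). By the labels of that table every sign below would turn, and the CPF and control channels named above would change places. Higher therefore means higher in the channel labelled CPF in the scanner files. Over 6 arrays, 6 of the 8 tested probes were called, standing for 5 of the 6 genes, and all were higher in the channel labelled CPF. Among all tested probes, 3.5% were called and 1.33% were called higher (limma, Benjamini-Hochberg adjusted p under 0.05). The call rests on most of the arrays at once: with CPF in Cy5 replicate 1, 2 or 3 or CPF in Cy3 replicate 2 left out, 0 of 8 probes were called, although by then only 58, 81, 94 and 77 of all tested probes were, against 386.

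The gene vit-1 was higher by 1.04 ± 0.20 (SE, n = 6, adjusted p = 0.0336, limma), a fold of 2.06, with a positive ratio on 5 of 6 arrays. Its log2 ratio was 1.32, 1.71 and 1.60 on the CPF in Cy5 arrays and 1.50, -0.10 and 0.23 on the CPF in Cy3 arrays, so that the orientations overlapped. The gene vit-2 was the 1 gene not called, at 0.70 ± 0.19 (SE, n = 6, adjusted p = 0.0784, limma). Its ratios of 1.03, 1.14 and 2.47 on the CPF in Cy5 arrays all lay above those of 0.16, -0.32 and -0.29 on the CPF in Cy3 arrays.

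For vit-3, probe 1 was higher by 0.75 ± 0.16 (SE, n = 6, adjusted p = 0.0443, limma) and probe 2 by 1.29 ± 0.28 (adjusted p = 0.0471). Probe 1 had ratios of 1.14, 1.51 and 2.36 on the CPF in Cy5 arrays and of -0.32, -0.11 and -0.07 on the CPF in Cy3 arrays. Probe 2, which reads the same gene by its name, had 1.45, 2.23 and 1.49, and 2.28, 0.12 and 0.17. The largest disagreement between these 2 probes was on CPF in Cy3 replicate 1, where both had saturated pixels in the CPF channel and where probe 1 had them in the control channel too. The probe of vit-3 that was too dim to be tested had ratios from -0.24 to 2.02.

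For vit-4, probe 1 was higher by 0.78 ± 0.17 (SE, n = 6, adjusted p = 0.0471, limma), with ratios of 1.06, 1.33 and 2.37 on the CPF in Cy5 arrays and of -0.11, -0.07 and 0.08 on the CPF in Cy3 arrays. Probe 2 gave the highest fitted value of the family but was not called, at 1.68 ± 0.43 (adjusted p = 0.0702), and its ratios were 1.64, 2.20 and -0.12, then 3.96, 1.86 and 0.51. Its low value came from CPF in Cy5 replicate 3, where it was not above background in either channel. Here too the probes of 1 gene differed most on CPF in Cy3 replicate 1, at 3.96 and -0.11.

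The gene vit-5 was higher by 0.85 ± 0.18 (SE, n = 6, adjusted p = 0.0471, limma), with ratios of 1.17, 1.30 and 2.59 on the CPF in Cy5 arrays and of -0.01, -0.05 and 0.11 on the CPF in Cy3 arrays. The precursor gene vit-6, whose probe was free of saturated pixels, was higher by 0.88 ± 0.18 (adjusted p = 0.0441), with ratios of 1.29, 1.32 and 2.42, then 0.62, -0.26 and -0.11. An exact 2-sided sign-flip permutation of the 6 ratios of a probe, which does not use the dye term and cannot go below 0.03125, gave unadjusted p of 0.0625 for vit-1, 0.21875 for vit-2, 0.25 and 0.03125 for vit-3 probes 1 and 2, 0.1875 and 0.0625 for vit-4 probes 1 and 2, and 0.125 for both vit-5 and vit-6. Adjusted over these 8 probes (Benjamini-Hochberg), the permutation p-values ran from 0.167 to 0.25.

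**Figure D2:**
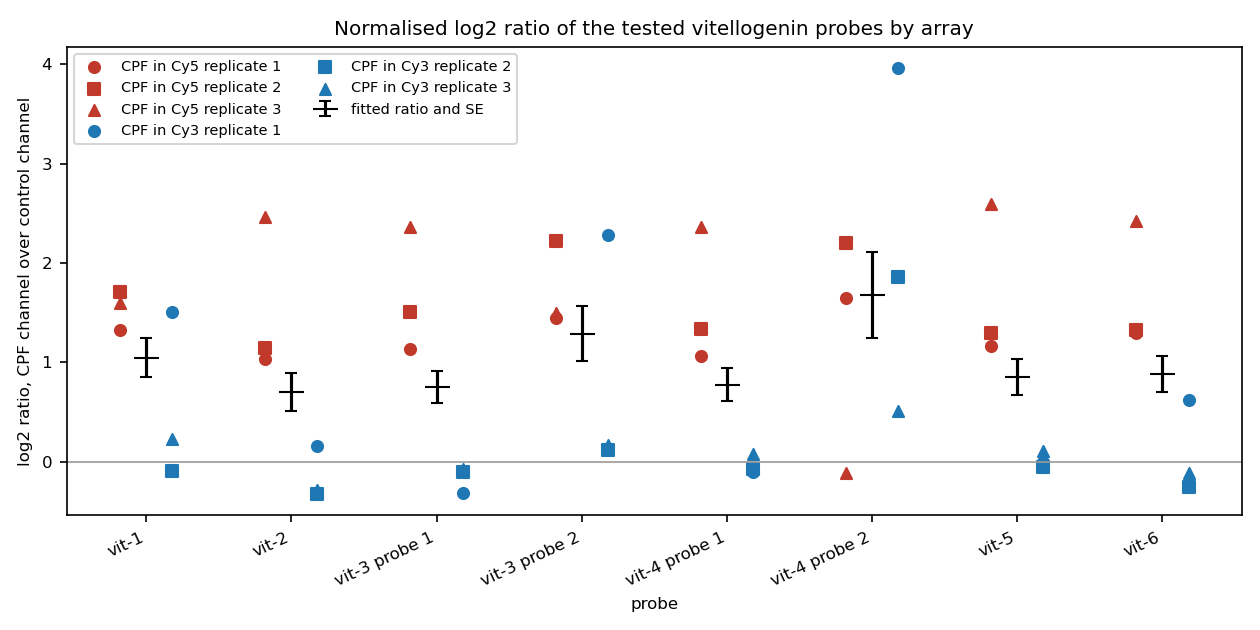
Normalised log2 ratio of the CPF channel over the control channel for the 8 tested vitellogenin probes, with 1 point per array, coloured by the dye of the CPF sample, and the fitted ratio with its SE in black (n = 6 arrays). For 5 probes all CPF in Cy5 arrays lie above all CPF in Cy3 arrays.

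By the brightest probe of each gene, mean ratios were higher on the CPF in Cy5 arrays than on the CPF in Cy3 arrays. Probe 2 of vit-4 went the other way, with means of 1.24 and 2.11. Averaged over the 6 genes, by the brightest probe of each, the log2 ratio was 1.17, 1.39 and 2.30 on the CPF in Cy5 arrays and 0.31, -0.15 and -0.01 on the CPF in Cy3 arrays. Mean ratios were 1.62 and 0.05. The ratio of 2.30 rests on CPF in Cy5 replicate 3, where the control channel of 4 of the 6 genes was not above background, and that of 0.31 on CPF in Cy3 replicate 1, where 4 of the 6 probes had saturated pixels. Without these 2 arrays the mean ratios were 1.28 and -0.08. The ratio was positive on all 3 CPF in Cy5 arrays for 7 of the 8 tested probes, against 21.1% of all tested probes, and for 5 of the 8 every CPF in Cy5 array lay above every CPF in Cy3 array, against 6.99% of all tested probes. The dye term of the fit tests this difference. It was largest for vit-3 probe 1, at 1.83 (unadjusted p = 0.000341, adjusted p = 0.199, limma), and no vitellogenin probe passed, with adjusted p of 0.199 to 0.735. Over all tested probes 1 passed (0.00906%), and 1091 had an unadjusted p under 0.05. When fitted alone, the CPF in Cy5 arrays called all 8 vitellogenin probes, and 629 of all 11033 tested probes. The CPF in Cy3 arrays alone called 0 of 8, but also only 20 of all tested probes. On the latter vit-2, vit-3 probe 1 and vit-4 probe 1 were at -0.15, -0.17 and -0.03. Without a dye term 0 of 8 were called, and 205 of all tested probes. Each orientation had its own arrays, so that dye and any other difference between these sets of arrays, as of slides or animals, cannot be told apart.

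**Figure D3:**
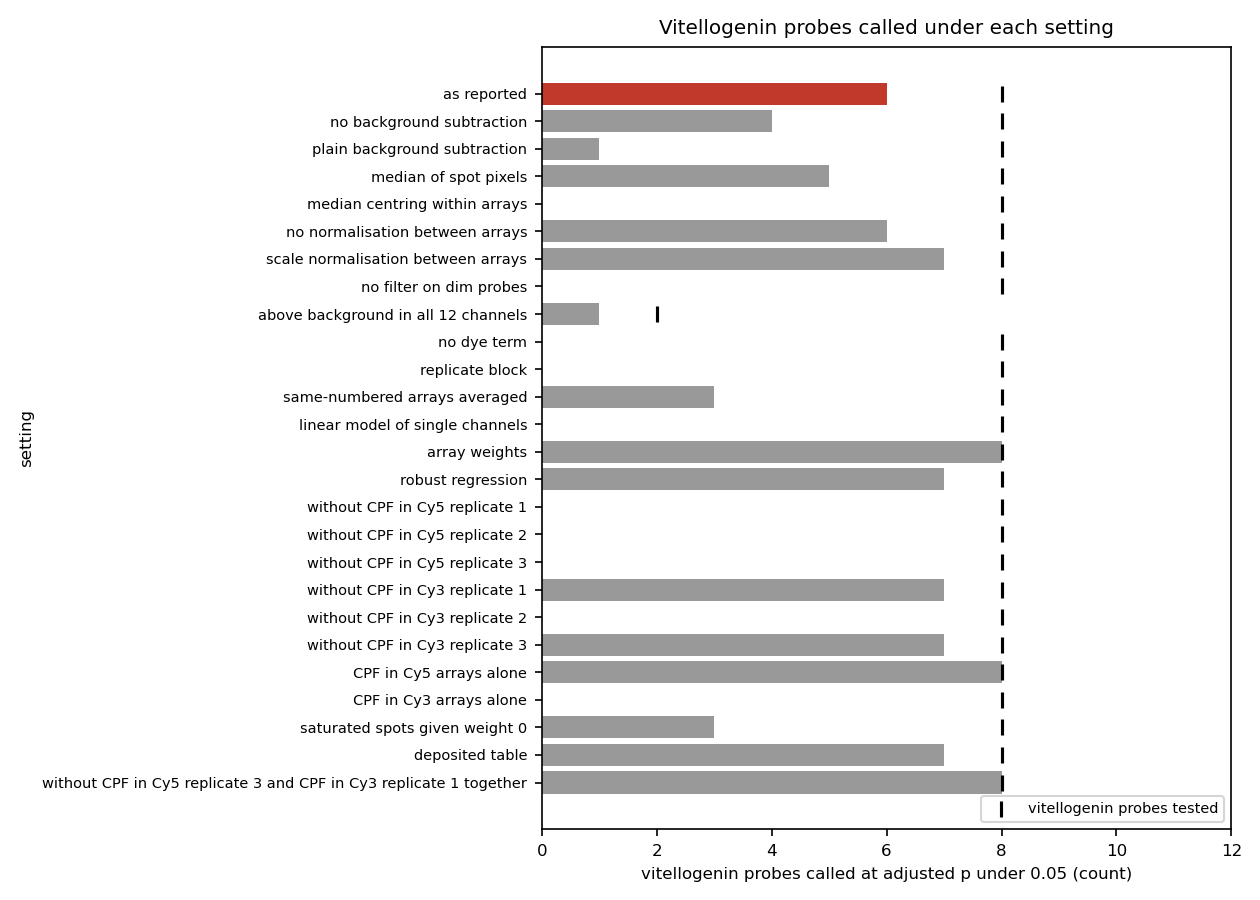
Number of the 8 tested vitellogenin probes called at an adjusted p under 0.05 (bars) with the number tested (ticks), as reported (red) and under each other setting (grey). The count runs from 0 to 8: it is 0 without a dye term and without any 1 of the CPF in Cy5 arrays, and 8 on the CPF in Cy5 arrays alone. Counts over all tested probes moved too, from 386 as reported to 205 without a dye term and 629 on the CPF in Cy5 arrays alone.

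The ratio of the CPF in Cy5 arrays was present before normalisation. In background-subtracted signals without normalisation, the mean log2 ratio of the 6 genes was 0.81, 2.33 and 3.01 on these arrays and 0.78, -0.63 and -0.28 on the CPF in Cy3 arrays. After median centring in place of loess it was 0.86, 1.91 and 2.31, then 0.21, -0.51 and -0.05. The sign per array was the same in all 3 scales.

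The members moved together from array to array. The level of a gene on an array is given as the mean of both channels after normalisation, on a log2 scale. For the mean over the 6 genes it was 13.83, 13.61 and 9.23 on the CPF in Cy5 arrays and 14.64, 14.06 and 13.96 on the CPF in Cy3 arrays. Across the 15 pairs of genes the correlation of the log2 ratios had a median of 0.95 (0.632 to 0.997, n = 6 arrays), and that of the levels a median of 0.966 (0.79 to 0.996, n = 12 channels, centred within each dye). The channels share arrays and libraries, and the near-identical genes may share target, so that these are descriptions. Without CPF in Cy5 replicate 3 the median correlation of the levels was 0.758 (0.154 to 0.949, n = 10 channels).

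On CPF in Cy5 replicate 3 all 6 genes had their lowest level. In the CPF channel, where all 6 were above background on every array, the level there was lower than the median of the other 5 CPF channels by 4.45-fold for vit-1, 13.3-fold for vit-2, 19.7-fold for vit-3, 24.4-fold for vit-4, 18-fold for vit-5 and 16.9-fold for vit-6. These folds take saturated spots on CPF in Cy3 replicate 1 at their measured value. Over both channels the mean level of the 6 genes differed from the median of the other 5 arrays by -4.73 as measured. This value includes control channels of vit-3 to vit-6 that were not above background on this array, so that it holds a bound on the difference rather than its size.

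Low values on this array were not particular to yolk. Over both channels the smallest gap among the 6 genes was -2.39, for vit-1, and 193 of the 11025 other tested probes (1.75%) were at least as low. They belonged to 189 genes, of which 36 had more than 1 tested probe. In 4 of these 36 a second probe was also that low, and in 10 of them a probe was at or above its median on the other arrays. The gaps of the second tested probes of vit-3 and vit-4 were -5.16 and -3.88, the latter measured on a spot that was not above background in either channel.

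Genes of oocytes, eggshell and sperm were lower on this array as well, by less. The median gap to the other 5 arrays was -1.27 over 20 oocyte and eggshell genes, of which 12 had their lowest level there, and -1.60 over 21 sperm genes, of which 17 did. Over all 9947 tested genes the median gap was 0.06, and 14.5% had their lowest level there. The eggshell gene perm-2 was at 8.21 there, where its control channel was not above background, and at a median of 12.24 on the others. The receptor gene rme-2 was at 8.39 there and at 9.26 to 10.72 on the others. Over 14 intestinal genes the median gap was -0.11, and 2 of the 14 had their lowest level there. Genes of the moult (13, median gap 0.75) and of muscle (12, median gap 0.54) had their lowest level there in 0 cases, against the same 14.5%.

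**Figure D4:**
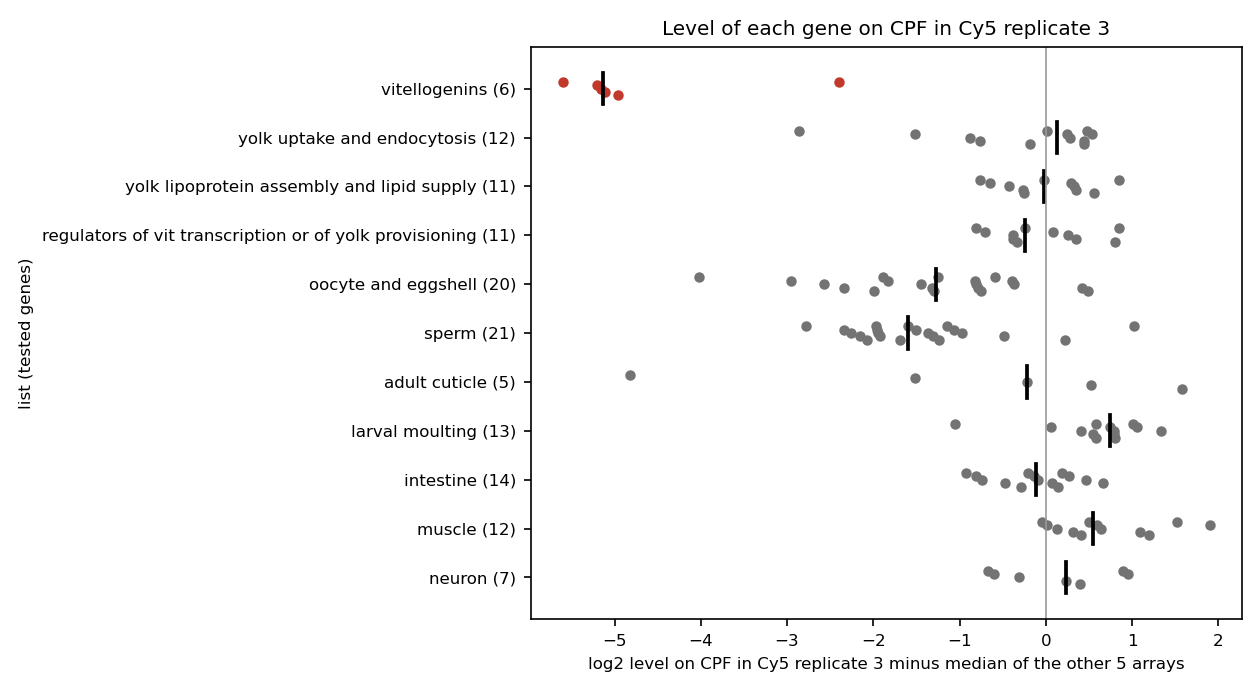
Level of each tested gene on CPF in Cy5 replicate 3 minus its median on the other 5 arrays (log2 scale), by list, with the number of tested genes in brackets and the median as a black bar. The 6 vitellogenin genes lie between -5.60 and -2.39, the oocyte and sperm lists have medians of -1.27 and -1.60, and the moulting and muscle lists lie mostly above 0.

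Markers of stage were set beside the yolk genes, since the labels call all samples late larvae. Of 5 tested adult cuticle genes, 2 had their lowest level on CPF in Cy5 replicate 3, with a median gap of -0.22. The collagen col-19, a gene switched on after the last moult, was above background in both channels of 5 arrays, at levels of 9.30 to 11.72, and in neither channel of CPF in Cy5 replicate 3, at 6.14. The other genes of the list did not share a drop of that size. The gene bli-1 was at 11.52 there and at 10.28 to 11.78 on the others. There and at the median of the others bli-2 was at 10.86 and 12.37, rol-6 at 14.06 and 14.29, and lon-3 at 12.46 and 10.89. Outside the list, probes of other collagen genes had gaps like that of col-19 (-4.83), among them col-140 (-5.21), col-124 (-5.02) and col-20 (-5.01). How many collagen genes did not was not counted. Whether the genes of the list are particular to the adult was not tested. The moulting gene mlt-10 was above background in all 12 channels. Transcripts of yolk, of the adult cuticle and of the larval moult were thus measured in both groups, and on CPF in Cy5 replicate 3 yolk transcripts were above background for all 6 genes in the CPF channel. Whether stage, sex or the share of older animals varied between samples was not tested.

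Genes that work with yolk, of the germ line and of other tissues were compared between CPF and control by the brightest probe of each gene. Over all tested genes 0.965% were called higher and 2.34% lower (3.31% in all), so that 0 calls is near the background for a list of this size. Each call in the lists below was lost when CPF in Cy5 replicate 1, 2 or 3 or CPF in Cy3 replicate 2 was left out, and with a replicate block.

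Of 12 tested genes of uptake and endocytosis 0 were called (median log2 ratio -0.20, against 0.01 over all tested genes). The yolk receptor gene rme-2 was at 0.17 ± 0.14 (SE, adjusted p = 0.44, limma), with a mean ratio of 0.40 on the CPF in Cy5 arrays and -0.06 on the CPF in Cy3 arrays. The members with the smallest p were par-6, a polarity gene, at 0.24 (adjusted p = 0.157, limma), and rab-5, a GTPase of early endosomes, at -0.25 (adjusted p = 0.161).

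Of 11 tested genes of lipoprotein assembly and lipid supply 0 were called (median 0.09). The gene dsc-4, which encodes the microsomal triglyceride transfer protein that loads lipoproteins with lipid, was at -0.41 ± 0.14 (SE, adjusted p = 0.121, limma). The fatty acid desaturase genes fat-5 and fat-7 were at -0.59 (adjusted p = 0.0743) and 0.32 (adjusted p = 0.112). Of 11 tested regulators of vit transcription or yolk provisioning 0 were called higher and 1 lower, namely pqm-1, a zinc finger transcription factor, which fell by 0.54 (SE 0.11, adjusted p = 0.0443, limma) with a negative ratio on all 6 arrays. The bHLH factor gene mxl-3 was at 0.36 (adjusted p = 0.114).

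In the oocyte and eggshell list 1 of 20 was called higher and 0 lower (median 0.33). A positive ratio was seen for 18 of the 20, against 50.9% of all tested genes. It was also seen for 20 of 21 sperm and 5 of 5 adult cuticle genes, and for 4 of 14 intestinal genes. The called gene was oma-2, a zinc finger protein of oocyte maturation, at 0.57 (SE 0.12, adjusted p = 0.0467, limma) and positive on 6 of 6 arrays, and perm-4, an eggshell gene, was at 0.76 (adjusted p = 0.0507). In the sperm list 2 of 21 were called higher and 0 lower (median 0.49), namely msp-63, at 0.64 (adjusted p = 0.0363, limma), and msp-50, at 0.82 (adjusted p = 0.0499), both of the major sperm protein family, whose probes may read several near-identical copies. The median ratio of the sperm list was 0.86 on the CPF in Cy5 arrays and 0.03 on the CPF in Cy3 arrays, beside 1.63 and -0.01 for the vitellogenins. That of the oocyte list was 0.37 and 0.21.

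Of 5 adult cuticle genes 0 were called, at a median of 0.77. The list's median was 0.67 where CPF carried Cy5 and 0.82 where it carried Cy3, with bli-2 at 0.67 and 1.46, and the collagen genes bli-1 and bli-2 were at 0.77 (adjusted p = 0.0628, limma) and 1.07 (adjusted p = 0.0758). Of 13 moulting genes 0 were called (median 0.20), with mlt-8 at 0.85 (adjusted p = 0.0532) and noah-1, a component of the larval cuticle matrix, at 0.56 (adjusted p = 0.0702). In the intestine list 0 of 14 were called higher and 1 lower (median -0.23), namely cpr-1, a gut cysteine protease, which fell by 0.97 (SE 0.19, adjusted p = 0.0366, limma) and was negative on 6 of 6 arrays, while the gut esterase gene ges-1 was at -0.42 (adjusted p = 0.0702). Muscle (12 genes, median -0.02) and neuron lists (7 genes, median -0.29) held 0 calls. Their members with the smallest p were the myosin gene myo-3, at -0.41 (adjusted p = 0.101), and the troponin gene unc-27, at -0.32 (adjusted p = 0.116), and in neurons the carboxypeptidase gene egl-21, at -0.48 (adjusted p = 0.0734), and the syntaxin gene unc-64, at -0.35 (adjusted p = 0.161).

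The genes whose levels were most like the mean of the vitellogenins over 12 channels, each channel centred within its dye, were ranked among 9941 others by Pearson's r. The first 10 were ule-3 (0.974), msp-49 (0.963), T13F2.9 (0.962), C48E7.7 (0.961), msp-56 (0.958), perm-2 (0.954), msp-78 (0.953), stha-3 (0.952), ule-4 (0.95) and skpo-1 (0.948). Of these, msp-49, msp-56 and msp-78 belong to the major sperm protein family, and ule-3 and ule-4 are named for the lumen of the uterus. The likeness rests on 1 array for most of them. Without CPF in Cy5 replicate 3, C48E7.7 (0.934) and skpo-1 (0.912) were the 2 of the 10 still above 0.9, and msp-56 stood at 0.53. The 3 genes least like the family were F35F10.14 (-0.946), F41H10.5 (-0.944) and Y43F8B.6 (-0.92). F41H10.5 was at 13.83 on CPF in Cy5 replicate 3 and at a median of 7.79 on the others, and its r turned to 0.579 without that array.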

How the data were processed

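Arrays of printed long oligonucleotides were scanned and quantified by the authors in ScanArray Express, per the file headers, with Cy3 as the first and Cy5 as the second channel. The deposited intensity of each spot and its local background were not normalised, and the percent of saturated pixels was deposited as that program wrote it. The deposited log2 ratios were made by the authors with limma 3.2.3, per the labels, and were used in 1 alternative fit, matched to arrays by their values.

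Control spots (742) were left out. Intensity was corrected by normexp (offset 50) and normalised by loess within and Aquantile between arrays. The log2 ratio of 11033 probes was fitted in R 4.3.3 with limma 3.58.1 on a CPF and a dye term (2-sided, Benjamini-Hochberg over all tested probes, threshold 0.05), after the procedure was checked on simulated data. A gene was represented by its brightest probe in lists. The share of gene probes above background was 35.2% to 56.1% per Cy3 channel and 38.3% to 53.4% per Cy5 channel, and the number of arrays limits the precision. The methods of the study call the 6 replicates independent, and the labels name no cultures, so p-values measure the spread between these samples.

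Members, lists and tests were chosen with earlier results of these data known. Always named were the vit genes, rme-2 and dsc-4, then up to 4 called members per list (or the 2 with the smallest p) and the 10 most and 3 least like genes. The genes col-19, col-20, col-124, col-140, rol-6, lon-3 and mlt-10 were chosen after their values were seen.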

Additional observations from a re-analysis of the deposited data

Results flagged for a closer look

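Over 6 arrays, a value was taken to stand apart where its gap to the nearest other array, as a share of the whole range, exceeded Dixon's 95% critical value, which chance alone reaches in about 1 of 20 groups. The mean level of the 6 vitellogenin genes did so on CPF in Cy5 replicate 3, with a share of 0.81 and a level of 9.23 against 13.61 on the nearest array. The control channel of vit-3 to vit-6 was not above background there. The same array stood apart, on the low side, for the levels of vit-2 (0.728), vit-3 probe 1 (0.853), vit-3 probe 2 (0.888), vit-4 probe 1 (0.837), vit-4 probe 2 (0.746), vit-5 (0.779) and vit-6 (0.817), and did not for vit-1 (0.431). The ratios of CPF over control did not stand apart on any array by this measure.

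The log2 ratio of vit-3 probe 1 was positive on each of the 3 CPF in Cy5 arrays and negative on each of the 3 CPF in Cy3 arrays, a difference of 1.834. The dye term of the fit gave an adjusted p of 0.199 (limma) for it.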

How the results depend on the processing

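The mean log2 ratio of the 6 vitellogenin genes, 0.83 as reported, lay between 0.60 and 0.95 under all settings that used arrays of both orientations, and was 1.62 on the CPF in Cy5 and 0.05 on the CPF in Cy3 arrays alone. On the latter the ratios of vit-2, vit-3 probe 1 and vit-4 probe 1 reversed, to -0.1513, -0.1658 and -0.03381. Counts of calls moved far more, from 6 vitellogenin and 386 of all tested probes as reported. No background subtraction gave 4 and 243, plain subtraction 1 and 230, median centring 0 and 54, scale normalisation 7 and 1268, no filter 0 and 265, a filter on all 12 channels 1 (of 2 tested) and 256, no dye term 0 and 205, averaging same-numbered arrays 3 and 165, a linear model of single channels 0 and 16, array weights 8 and 5005, robust regression 7 and 1591, saturated spots at weight 0 3 and 396, the deposited ratios 7 and 712, CPF in Cy5 arrays alone 8 and 629, and CPF in Cy3 arrays alone 0 and 20. Leaving out 1 array gave 0 to 7 vitellogenin and 58 to 1323 of all tested probes, with 7 and 806 without CPF in Cy3 replicate 1 and 7 and 1323 without CPF in Cy3 replicate 3. Leaving out both CPF in Cy5 replicate 3 and CPF in Cy3 replicate 1, chosen after seeing the data, gave 8 and 1304. The cause was not tested. Calls in the other lists moved likewise: with array weights 7 of 12 uptake, 15 of 20 oocyte, 18 of 21 sperm and 5 of 5 adult cuticle genes were called, and with plain subtraction, median centring, the single-channel model or a replicate block 0 of any list. With the replicate number as a block, 0 vitellogenin and 169 of all tested probes were called. Deviations of same-numbered arrays correlated at 0.103, -0.0788 and 0.271, so pairing is not shown. Saturated spots on 1 array and background on another limit what the ratios show.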
